A study of Homo sapiens with 24 samples.

Results

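The genes described here are 10 secreted inflammatory factors, chosen by name out of the 60236 genes of the count table: 3 chemokines of the interferon type, CXCL10, CXCL11 and CCL5, and 7 factors of the NF-kB type, CXCL1, CXCL2, CXCL3, CXCL5, CXCL8, CCL2 and the cytokine IL6. All 10 were present in the table. The study transfected 2 human cell lines, HEK293T (an embryonic kidney line that carries the SV40 large T antigen) and A549 (a lung adenocarcinoma line of epithelial origin), with 1 of 4 plasmids, and sequenced poly(A) RNA 48 h later to ask how the small noncoding RNA snaR-A and the splicing factor SF3B2 change the transcriptome. Each of the 8 groups held 3 libraries, which the study's methods call biological replicates.

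The 4 plasmids differed in insert and in kind. The snaR-A plasmid and its scrambled-sequence control (scramble) drive a short RNA from the U6 promoter, which RNA polymerase III uses. The SF3B2 and eGFP plasmids are pcDNA3.1 vectors that express a protein, SF3B2 (a subunit of the U2 small nuclear ribonucleoprotein of the spliceosome) or enhanced green fluorescent protein. All groups received Lipofectamine 3000 and a plasmid, so no group was untransfected, and every value below is relative to transfected cells. Insert and vector cannot be told apart between eGFP and scramble, or between SF3B2 and scramble. Each tissue is represented by a single line, so the differences between lines below are between these 2 lines. In bulk RNA, fewer cells of a kind and less RNA per cell cannot be told apart.

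Chemokines are small secreted proteins that draw leukocytes along a gradient. CXCL10 and CXCL11, which bind CXCR3 on T cells, and CCL5, which binds CCR1 and CCR3, are typically induced when interferon or a viral nucleic acid sensor activates STAT and IRF transcription factors. CXCL1, CXCL2, CXCL3, CXCL5 and CXCL8, which bind CXCR1 and CXCR2 on neutrophils, CCL2, which binds CCR2 on monocytes, and IL6, which signals through IL6R and IL6ST to STAT3, are typically induced by NF-kB downstream of TNF or IL1 receptors. The division is one of emphasis, since NF-kB also acts on CXCL10, CXCL11 and CCL5.

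Promoter windows upstream of the start site are printed for 7 members so that the NF-kB-type letters and the interferon-type letters can be seen side by side. They come from the RefSeq promoter table of GRCh38.p14, which held 8 of the 10 members. CCL5 and CCL2 had no entry, and most of the CXCL3 window lies in an annotated exon and is not printed. The start sites are those of RefSeq, and for several members, CXCL11, IL6, CXCL8 and CXCL3 among them, they lie inside the gene as the GENCODE annotation bounds it further on. Each sequence runs 5′ to 3′ on the strand of its gene, and capitals mark letters that match one of 3 searched motifs on either strand: GGNNNTTCC (kB-type), TGANTCA (AP-1), and GAAA followed by any 2 bases and a second GAAA (ISRE-type, the interferon-stimulated response element).
CXCL10, chr4:76023598-76023727, minus strand: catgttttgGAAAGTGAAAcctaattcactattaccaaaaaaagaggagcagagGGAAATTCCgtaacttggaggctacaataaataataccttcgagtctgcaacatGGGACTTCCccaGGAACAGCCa
CXCL11, chr4:76036111-76036190, minus strand: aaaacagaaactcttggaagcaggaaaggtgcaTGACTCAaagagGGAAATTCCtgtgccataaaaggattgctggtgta
CXCL1, chr4:73869273-73869352, plus strand: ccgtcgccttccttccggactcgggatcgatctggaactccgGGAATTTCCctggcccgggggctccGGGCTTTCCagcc
CXCL2, chr4:74099236-74099315, minus strand: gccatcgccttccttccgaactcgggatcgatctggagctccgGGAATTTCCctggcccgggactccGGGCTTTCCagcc
CXCL5, chr4:73998718-73998797, minus strand: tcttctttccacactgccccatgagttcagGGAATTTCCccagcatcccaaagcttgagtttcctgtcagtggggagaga
CXCL8, chr4:73740429-73740508, plus strand: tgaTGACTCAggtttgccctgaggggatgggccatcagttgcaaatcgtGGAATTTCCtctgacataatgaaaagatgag
IL6, chr7:22727066-22727145, plus strand: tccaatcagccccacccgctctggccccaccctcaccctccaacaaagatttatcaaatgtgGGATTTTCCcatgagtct

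Within the 250 bases before the start site, a kB-type match stood in all 8 promoters with an entry, as it did in 17.1% of the 35116 promoters of the table. CXCL10 held 3 kB-type matches, CXCL1, CXCL2 and CXCL3 held 2 each, and CXCL11, CXCL5, CXCL8 and IL6 held 1 each. The ISRE-type letters stood in CXCL10 alone among the 8, from -221 to -212 relative to the start site, and in 3.02% of all promoters. An AP-1 match stood in CXCL11 and CXCL8, and in 6.57% of all promoters. CXCL11, of the interferon type, and CXCL8, of the NF-kB type, thus held the same set of matches, and the searched letters did not separate the types. These are matches of letters in a window of fixed length, not measured binding, and a promoter without a match is not thereby shown to lack the site.

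The genes lie on chromosomes 4, 17 and 7 (GRCh38, GENCODE 44 annotation). CXCL8 (ENSG00000169429, chr4:73740519-73743716), CXCL1 (ENSG00000163739, chr4:73869393-73871308), CXCL5 (ENSG00000163735, chr4:73995642-73998677), CXCL3 (ENSG00000163734, chr4:74036589-74038807) and CXCL2 (ENSG00000081041, chr4:74097040-74099196) stand in one cluster. CXCL10 (ENSG00000169245, chr4:76021118-76023497) and CXCL11 (ENSG00000169248, chr4:76033682-76041415) stand further along the same chromosome, on the strand opposite to ART3, which overlaps both. CCL2 (ENSG00000108691, chr17:34255274-34257208) and CCL5 (ENSG00000271503, chr17:35871491-35880793) are on chromosome 17, and IL6 (ENSG00000136244, chr7:22725884-22732002), overlapped on the opposite strand by IL6-AS1 and STEAP1B, is on chromosome 7. The library kit keeps the strand, but whether the counting used it is not given in the sources used here. Of the 31-base words in its transcripts, CCL5 shared 24.2% with another gene, CXCL2 23.5%, CXCL1 13.7% and CXCL3 9.23%, the last 3 mainly among themselves, so part of the reads of CXCL1, CXCL2 and CXCL3 could have been divided among them by the counting. CXCL10, CXCL11, CXCL8 and CCL2 shared none.

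The libraries held between 195186194 and 260878268 estimated counts. SF3B2 mRNA checked the plasmids: the SF3B2 groups held 45570 to 48890 CPM (counts scaled to a library of 1000000) in A549 and 24050 to 37670 in HEK293T, and the other groups held 293 to 372, except A549 scramble replicate 3 at 8773. The summed level of 11 A549 marker genes was 17550 to 19560 CPM in A549 and 13.9 to 27.4 CPM in HEK293T, except 663 in HEK293T eGFP replicate 3 (3.58% of the A549 mean) and 31.5 in HEK293T SF3B2 replicate 3. Of the A549 markers, SFTPB and NKX2-1 were near 0 in A549 itself, at means of 0.0508 and 0.0172 CPM. For A549 snaR-A replicate 3 the labels disagree: its title, genotype and treatment fields name A549 and its cell line and tissue fields name HEK293T and kidney. It was grouped with A549, and its A549 markers summed to 17670 CPM. Results that rest on these 4 libraries are given below with and without them where leaving one out changed a call. The snaR-A RNA itself was not analysed here.

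Levels are given in CPM after TMM normalization (trimmed mean of M-values) with one scaling over the 24 libraries. A count of 3, the most that a count of 0 allows, corresponds to 0.0132 to 0.0165 CPM in A549 libraries and 0.00965 to 0.0136 CPM in HEK293T libraries. Differences are log2 fold changes with their SE from edgeR's quasi-likelihood F-test, n = 3 against 3, with Benjamini-Hochberg adjustment over all genes tested. To pass the threshold, a member needed both an adjusted p under 0.05 and a log2 fold change beyond 1 in either direction.

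The first and widest difference was between the cell lines. Every member was higher in A549 than in HEK293T, and for each of the 10 the lowest of the 12 A549 libraries lay above the highest of the 12 HEK293T libraries. The narrowest gap was that of CXCL11, with 0.269 to 1.62 CPM (median 0.465) in A549 and 0.0035 to 0.112 CPM (median 0.049) in HEK293T. CXCL10 ranged from 0.234 to 2.68 CPM (median 0.413) in A549 and from 0.00752 to 0.0410 CPM (median 0.0209) in HEK293T, where it stood close to the level of 3 counts. CCL5 ranged from 3.98 to 14.2 CPM (median 5.20) in A549 and from 0.209 to 0.920 CPM (median 0.339) in HEK293T.

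The NF-kB-type genes were mostly further apart between the lines. CXCL5, a neutrophil attractant, had the widest difference of the 10: 475 to 773 CPM (median 515) in A549, and 0.00332 to 18.1 CPM (median 0.0165) in HEK293T, where 6 of 12 libraries held 3 counts or fewer. Its top HEK293T value was again the eGFP replicate 3, and without it the highest was 0.534 CPM. CXCL8 (interleukin-8) ranged from 41.0 to 89.3 CPM in A549 and 0.113 to 1.75 CPM in HEK293T. CXCL2 ranged from 25.7 to 48.8 CPM against 0.164 to 1.21 CPM, and CXCL1 from 16.4 to 33.4 CPM against 0.161 to 1.10 CPM. CCL2, the monocyte attractant, ranged from 18.3 to 28.4 CPM against 0.0133 to 0.797 CPM. IL6 ranged from 6.84 to 17.2 CPM against 0.0208 to 0.458 CPM. CXCL3 ranged from 10.2 to 20.4 CPM against 0.365 to 0.937 CPM. In each of the 7 genes the highest HEK293T library was eGFP replicate 3.

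In the test over the 24 libraries, all 10 members passed as higher in A549, against 22.8% of all genes tested. The log2 fold changes of the interferon-type genes were 3.75 ± 0.21 for CXCL11 (adjusted p = 6.54e-13), 3.88 ± 0.16 for CCL5 (adjusted p = 4.9e-15) and 4.92 ± 0.22 for CXCL10 (adjusted p = 1.79e-14). Those of the NF-kB-type genes ran from 4.69 ± 0.11 for CXCL3 (adjusted p = 6.75e-19) to 12.27 ± 0.89 for CXCL5 (adjusted p = 6.32e-11), with a median of 6.72 beside 3.88 for the interferon-type genes, and CXCL3 was the member of its type that lay under CXCL10. The value for CXCL5 depends on HEK293T counts near the floor and became 14.3 without HEK293T eGFP replicate 3. Leaving out any 1 of the 24 libraries left all 10 calls in place. Other genes of these pathways were mostly higher in A549 too: of 26 NF-kB feedback and target genes tested 22 passed as higher and 1 as lower, of 15 interferon response genes 14 passed as higher and none as lower, and of 8 receptors of the members 4 passed as higher and 3 as lower.

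Compared per length within A549 (CPM per kilobase of the union of exons, scramble group, n = 3), CXCL5 stood at the top with 212 ± 12.7, followed by CXCL2 at 23.3 ± 1.53, CXCL8 at 20.1 ± 3.05, CXCL1 at 16.2 ± 2.04, CCL2 at 11.6 ± 1.15, CXCL3 at 5.85 ± 0.562, CCL5 at 3.17 ± 0.225, IL6 at 2.78 ± 0.799, CXCL10 at 0.26 ± 0.053 and CXCL11 at 0.23 ± 0.0177 (mean ± SD). The libraries of CXCL2 and CXCL8, of CXCL8 and CXCL1, of CCL5 and IL6, and of CXCL10 and CXCL11 overlapped, so the order of these neighbours is not fixed by 3 libraries. Dividing by the longest annotated transcript raised CXCL2 to 29.3, CXCL8 to 25.8, CXCL1 to 18.8, CXCL3 to 7.91 and IL6 to 3.62 CPM per kilobase and placed IL6 above CCL5. In HEK293T scramble the highest per length were CXCL8 at 0.338 ± 0.115, CXCL1 at 0.227 ± 0.0383, CCL5 at 0.209 ± 0.0695 and CXCL3 at 0.206 ± 0.0351, whose libraries overlapped from one to the next. CXCL5, the leader in A549, was the last of the 10 there at 0.00548 ± 0.00285.

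**Figure D1:**
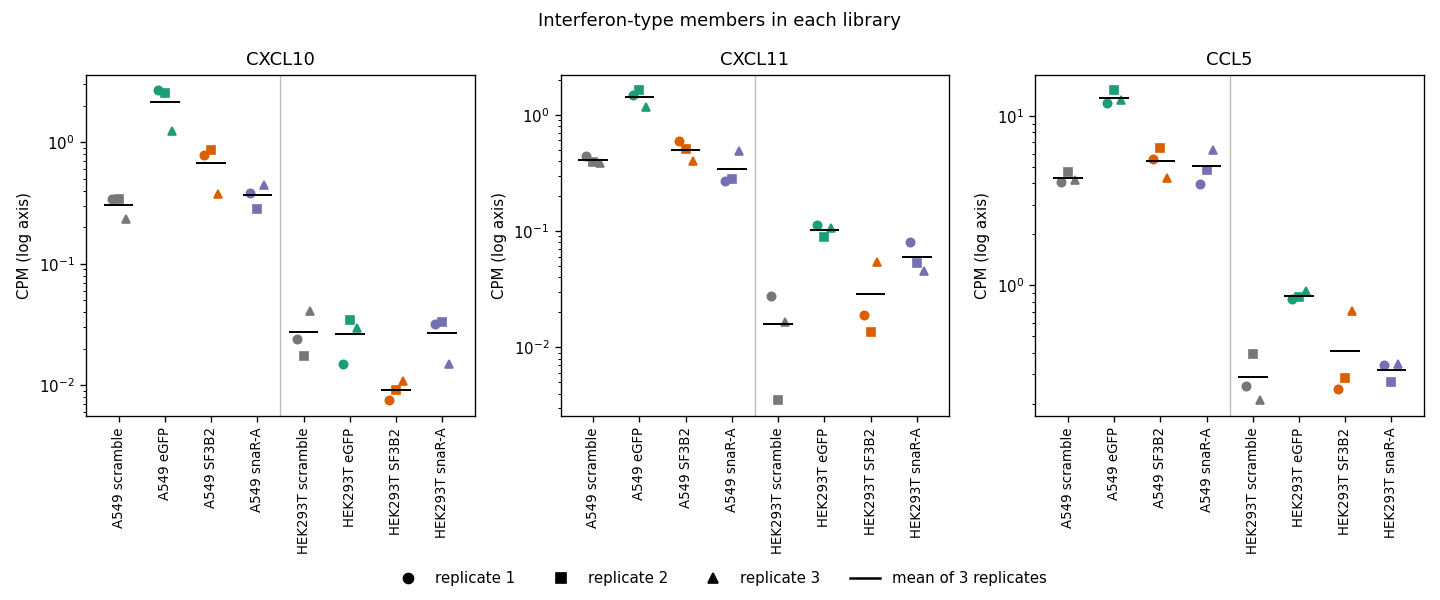
CPM on a log axis of CXCL10, CXCL11 and CCL5 in each of the 24 libraries, by group, with circles, squares and triangles for replicates 1, 2 and 3 and a bar at the mean of 3. The 3 A549 eGFP libraries lie above the other 9 A549 libraries in each panel, and all A549 libraries lie above all HEK293T libraries.

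In A549, the eGFP plasmid against scramble separated the 2 types of gene. CXCL10 was 2.68, 2.57 and 1.23 CPM in the 3 eGFP libraries and 0.344, 0.339 and 0.234 CPM in the 3 scramble libraries. CXCL11 was 1.47, 1.62 and 1.17 CPM against 0.445, 0.395 and 0.387 CPM, and CCL5 was 11.95, 14.2 and 12.4 CPM against 4.09, 4.67 and 4.21 CPM. For all 3 the eGFP libraries lay above every scramble library, and CXCL10 had one eGFP library, replicate 3, at less than the level of the other 2. The log2 fold change was 2.81 ± 0.33 for CXCL10 (7.02-fold, adjusted p = 0.00565), 1.79 ± 0.17 for CXCL11 (3.46-fold, adjusted p = 0.00156) and 1.57 ± 0.10 for CCL5 (2.96-fold, adjusted p = 0.000192). All 3 interferon-type genes passed the threshold and none of the 7 NF-kB-type genes did, against 0.904% of all genes that passed as higher. Each of the 3 calls held when any 1 of the 6 libraries was left out, with adjusted p between 0.00104 and 0.0427 for CXCL10.

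The NF-kB-type genes were higher in eGFP by less than 1 on the log2 scale. CXCL8 was 89.3, 79.2 and 68.9 CPM in eGFP and 50.05, 60.8 and 45.4 CPM in scramble, a log2 fold change of 0.60 ± 0.13 (adjusted p = 0.109). CXCL3 was 20.4, 19.2 and 17.8 CPM against 12.5, 14.4 and 12.04 CPM, 0.55 ± 0.09 (adjusted p = 0.0278), the one member of its type under an adjusted p of 0.05. It kept that in 2 of 6 fits with a library left out, and its adjusted p was 0.0773 without scramble replicate 3. For both genes the groups were apart by only a small step.

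CXCL5 was 773, 711 and 614 CPM in eGFP against 502, 551 and 494 CPM in scramble, 0.43 ± 0.09 (adjusted p = 0.104). CXCL1 was 33.4, 27.9 and 30.4 CPM against 22.9, 24.4 and 19.0 CPM, 0.46 ± 0.11 (adjusted p = 0.17). CXCL2 was 48.8, 42.4 and 39.2 CPM against 33.0, 34.6 and 30.3 CPM, 0.41 ± 0.09 (adjusted p = 0.128). These 3 neutrophil attractants were thus shifted by like amounts, with no overlap between the groups. IL6 was 17.2, 16.3 and 15.3 CPM against 14.2, 13.8 and 8.03 CPM, 0.43 ± 0.20 (adjusted p = 0.82), with 1 scramble library far below the other 2. CCL2 was 28.4, 24.2 and 26.6 CPM against 24.7, 22.4 and 20.3 CPM, 0.23 ± 0.09 (adjusted p = 0.711), and was the member whose groups overlapped.

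Counted over the list, 4 of 10 members were higher at an adjusted p under 0.05, against 1.46% of all genes, and 9 of 10 were higher in eGFP without overlap between the groups, against 6.94% of all genes. The median log2 fold change was 1.79 over the 3 interferon-type genes, 0.43 over the 7 NF-kB-type genes and -0.01 over all 21578 genes tested. The count of 4 depends on the test: it was 8 with edgeR's exactTest, 8 with DESeq2's Wald test and 8 in a fit of all 12 A549 libraries, where CCL2 and IL6 alone stayed above an adjusted p of 0.05. The exact permutation test of 3 against 3 libraries cannot go below p = 0.1 (two-sided), which it gave for each of the 9 genes without overlap.

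Of 14 interferon response genes tested, all 14 passed as higher, among them OAS2 (an oligoadenylate synthetase that activates RNase L) at 4.0 ± 0.14 (adjusted p = 6.35e-05), IFIT2 at 3.42 ± 0.13 (adjusted p = 6.35e-05) and RSAD2 (viperin) at 3.38 ± 0.27 (adjusted p = 0.000624). Of 5 interferon ligands tested 4 passed as higher: IFNL2 at 4.41 ± 0.64, IFNL3 at 3.88 ± 0.54, IFNL1 at 3.70 ± 0.22 and IFNB1. The fifth, IFNE, was 2.55, 2.46 and 2.31 CPM in eGFP and 2.71, 2.69 and 2.49 CPM in scramble and was not called. IFNB1, the type I interferon, was 1.31, 1.54 and 1.08 CPM in eGFP and 0.0477, 0.121 and 0.183 CPM in scramble. None of 25 NF-kB feedback and target genes passed, and 1 was higher at an adjusted p under 0.05. NFKBIA, the inhibitor that NF-kB itself induces, was 111, 106 and 111 CPM against 112, 109 and 97.7 CPM. Of 16 NF-kB pathway components, 2 passed as higher, TLR3 (the endosomal sensor of double-stranded RNA) at 2.76 ± 0.17 (adjusted p = 0.000162) and the adaptor MYD88 at 1.27 ± 0.06 (adjusted p = 0.000101). Among the 12 other chemokines tested CX3CL1 passed at 1.23 ± 0.17 (adjusted p = 0.0138). None of 5 receptors of the members, 10 interleukin-6 response genes or 8 mRNA decay factors of cytokine transcripts passed.

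The summed level of 8 leukocyte markers moved with this comparison, 41.2 to 59.4 CPM in A549 eGFP and 22.0 to 31 CPM in A549 scramble. Most of it was CD68, a lysosomal glycoprotein, at 36.6 to 54.3 CPM against 17.5 to 26.0 CPM. The defining leukocyte genes PTPRC (CD45), CD3E and MS4A1 (CD20) held 0 counts in all 6 libraries.

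**Figure D2:**
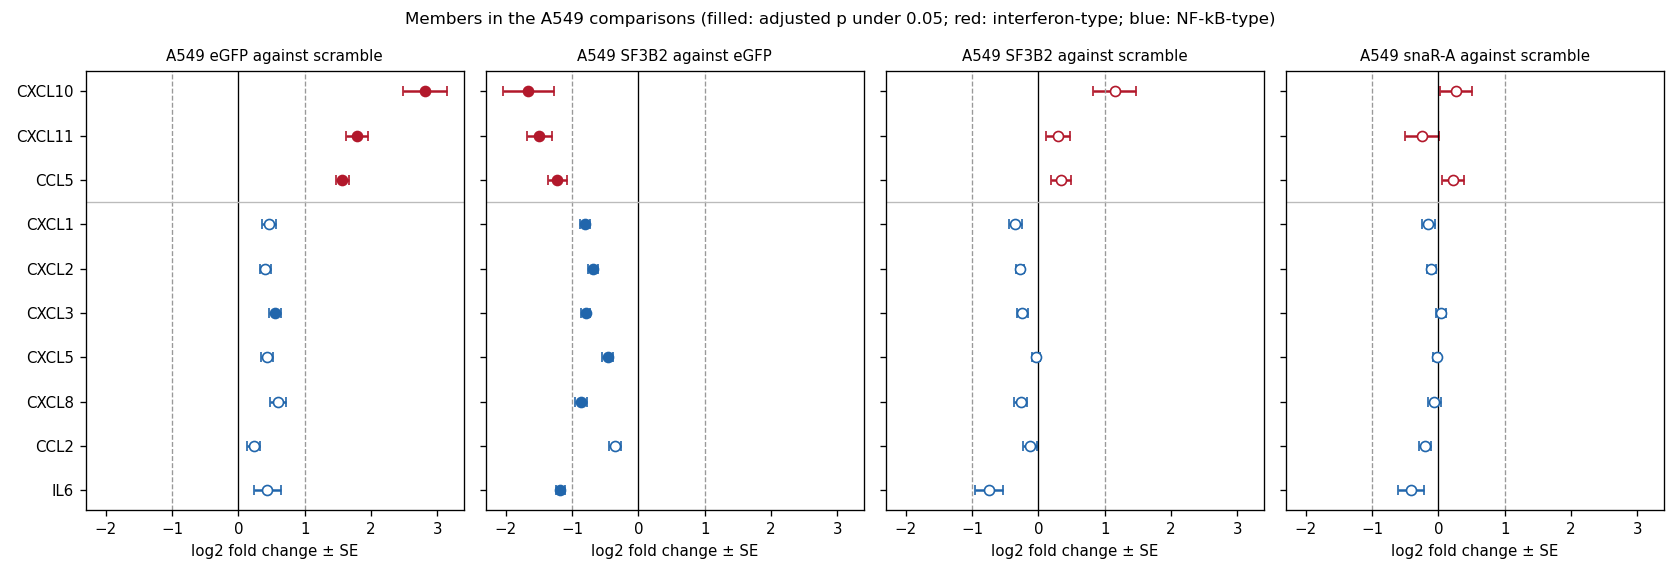
Log2 fold change ± SE of the 10 members in 4 comparisons between A549 groups, each of 3 against 3 libraries, with filled points at an adjusted p under 0.05, red for interferon-type and blue for NF-kB-type genes and dashed lines at 1 and -1. The 3 red points lie beyond the dashed lines in the first and second panels, the blue points cluster between 0.23 and 0.60 in the first, and no point is filled in the 2 panels for SF3B2 and snaR-A against scramble.

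With SF3B2 against eGFP in A549, genes of both types were lower. These comparisons share the eGFP libraries, and those below share the scramble libraries, so their values are set side by side and are not independent of each other. CXCL10 was 0.788, 0.866 and 0.377 CPM in the SF3B2 libraries, CXCL11 was 0.595, 0.505 and 0.399 CPM, and CCL5 was 5.59, 6.45 and 4.32 CPM, all below every eGFP library. The log2 fold change was -1.66 ± 0.38 for CXCL10 (adjusted p = 0.0484), -1.49 ± 0.19 for CXCL11 (adjusted p = 0.00618) and -1.22 ± 0.14 for CCL5 (adjusted p = 0.00499). The call for CXCL10 held in 1 of 6 fits with a library left out: the adjusted p was 0.00984 without eGFP replicate 3, and without any other of the 6 libraries the call was lost, with adjusted p up to 0.147 (without eGFP replicate 2). With library size alone in place of TMM it was 0.0567.

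IL6 was the one NF-kB-type gene past the threshold, with 7.62, 6.92 and 6.84 CPM in SF3B2 and 17.2, 16.3 and 15.3 CPM in eGFP, a log2 fold change of -1.18 ± 0.07 (2.26-fold lower, adjusted p = 0.000242). The 3 SF3B2 libraries stood close together and far below the eGFP libraries, and the call held in all 6 fits with a library left out. CXCL8 was 44.7, 41.0 and 43.4 CPM in SF3B2, at -0.87 ± 0.09 (adjusted p = 0.00261). CXCL1 was 17.9, 16.4 and 17.6 CPM, at -0.81 ± 0.07 (adjusted p = 0.00146).

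The differences of the remaining genes were smaller. CXCL3 was 11.3, 10.2 and 11.2 CPM in SF3B2, at -0.79 ± 0.07 (adjusted p = 0.00114), and CXCL2 was 27.3, 27.0 and 25.7 CPM, at -0.69 ± 0.08 (adjusted p = 0.00379). CXCL5 was 522, 475 and 508 CPM, at -0.47 ± 0.08 (adjusted p = 0.0216), and rose above an adjusted p of 0.05 in 5 of 6 fits with a library left out, up to 0.109 without SF3B2 replicate 2. For CCL2, at 22.6, 18.3 and 20.5 CPM, the value was -0.35 ± 0.09 (adjusted p = 0.0636). Below eGFP without overlap were all 10 members, against 14.2% of all genes.

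In this comparison 9 of 10 members were lower at an adjusted p under 0.05, against 3.60% of all genes, and 4 of 10 passed the threshold as lower, against 0.802%. The median log2 fold change was -1.49 over the interferon-type genes, -0.79 over the NF-kB-type genes and 0.01 over all 21581 genes tested. Of 14 interferon response genes all 14 passed as lower, with OAS2 at -2.65 ± 0.14, IFI44L at -2.43 ± 0.18 and RSAD2 at -2.30 ± 0.22, as did 4 of 5 interferon ligands, with IFNL2 at -2.26 ± 0.34 and IFNB1 at -2.11 ± 0.29. None of 25 NF-kB feedback and target genes passed the threshold, while 9 were lower and none higher at an adjusted p under 0.05. SOD2, a mitochondrial dismutase that NF-kB induces, was among the 9 at -0.76 ± 0.07 (adjusted p = 0.00149). TLR3 passed as lower at -2.19 ± 0.24 (adjusted p = 0.00336). Of 12 other chemokines 3 were lower at an adjusted p under 0.05, CCL20, a ligand of CCR6, among them at -0.79 ± 0.11 (adjusted p = 0.0103). Leukocyte markers summed to 26.4 to 29.5 CPM in SF3B2, below the 41.2 to 59.4 CPM of eGFP, with PTPRC and CD3E at 0 counts in all 6 libraries. Of 5 leukocyte markers tested, 2 were lower at an adjusted p under 0.05 and 1 passed the threshold.

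Against scramble, the log2 fold changes of SF3B2 differed in sign between the 2 types, with no test of a difference between the types. The negative sign of CXCL5 did not hold in every fit with a library left out. In SF3B2 the interferon-type genes had positive log2 fold changes, 1.15 ± 0.33 for CXCL10 (adjusted p = 0.369), 0.34 ± 0.15 for CCL5 (adjusted p = 0.384) and 0.30 ± 0.19 for CXCL11 (adjusted p = 0.458). The 7 NF-kB-type genes had negative ones, from -0.03 ± 0.06 for CXCL5 (adjusted p = 0.808) to -0.74 ± 0.21 for IL6 (adjusted p = 0.366). None of the 10 members was under an adjusted p of 0.05 with edgeR's quasi-likelihood F-test, against 0.233% of all genes. At an unadjusted p under 0.05 were 6 of the 10, beside 2801 of all 21461 genes. The count at an adjusted p under 0.05 was 1 with exactTest and 3 with DESeq2. Of the 10, 5 were lower in SF3B2 without overlap, CXCL1, CXCL2, CXCL3, CXCL8 and IL6, against 8.75% of all genes.

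One library weighed on this comparison. A549 scramble replicate 3, which held 8773 CPM of SF3B2 mRNA beside 372 and 340 CPM in the other scramble libraries, had the lowest scramble value of CXCL10, CXCL11, CXCL1, CXCL2, CXCL3, CXCL5, CXCL8, CCL2 and IL6. Its IL6 was 8.03 CPM beside 14.2 and 13.8 CPM, close to the 6.84 to 7.62 CPM of the SF3B2 group. Without it, 5 NF-kB-type members were lower at an adjusted p under 0.05: IL6 at -0.98 ± 0.07 (adjusted p = 0.00221), CXCL1 at -0.46 ± 0.05 (adjusted p = 0.00522), CXCL8 at -0.37 ± 0.08 (adjusted p = 0.0206), CXCL2 at -0.35 ± 0.04 (adjusted p = 0.00453) and CXCL3 at -0.31 ± 0.08 (adjusted p = 0.0366). The interferon-type genes were not under 0.05 without it, with CXCL10 at 0.98 ± 0.35 (adjusted p = 0.0981). The share of all genes called without scramble replicate 3 is not given here, so the count of 5 has no background beside it. The part of the SF3B2 mRNA in these values was not tested. Among the other lists, 7 of 14 interferon response genes were higher in SF3B2 at an adjusted p under 0.05 and 6 passed the threshold, with OAS2 at 1.35 ± 0.12 (adjusted p = 0.0195), OASL at 1.26 ± 0.16 (adjusted p = 0.0468) and IFIT2 at 1.2 ± 0.12 (adjusted p = 0.0316), and none of 25 NF-kB feedback and target genes was under an adjusted p of 0.05.

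snaR-A against scramble in A549 gave no call on any member. CXCL10 was 0.380, 0.284 and 0.446 CPM in the snaR-A libraries, CXCL11 was 0.269, 0.279 and 0.485 CPM, and CCL5 was 3.98, 4.81 and 6.34 CPM. Replicate 3, the library with the disagreeing labels, was the highest of the 3 for each of these genes. CXCL8 was 50.7, 48.3 and 50.6 CPM, CXCL5 was 506, 525 and 494 CPM and IL6 was 8.90, 9.26 and 8.96 CPM. The IL6 libraries of snaR-A stood close together and lay between scramble replicate 3 and the other 2 scramble libraries.

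The log2 fold changes ranged from -0.41 ± 0.20 for IL6 to 0.27 ± 0.24 for CXCL10, with a median of 0.22 over the interferon-type and -0.11 over the NF-kB-type genes. For all 10 members the snaR-A and scramble libraries overlapped. None was under an adjusted p of 0.05, against 0.0185% of all genes. With the quasi-likelihood F-test 0 members were under an unadjusted p of 0.05, beside 1329 of all 21662 genes. DESeq2, exactTest and the fit of all 12 libraries gave 0 at an adjusted p under 0.05. Without scramble replicate 3, IL6 was lower in snaR-A at -0.635 ± 0.0594 (adjusted p = 0.0202), with no share of all genes given for that fit. Of the interferon response, interferon ligand and NF-kB feedback lists, 0 of 14, 0 of 5 and 0 of 26 genes were under an adjusted p of 0.05.

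The A549 groups were ordered as follows, with no test of a difference between the types. For CXCL10, CXCL11 and CCL5 eGFP was highest without overlap, at means of 2.16 ± 0.80, 1.42 ± 0.23 and 12.9 ± 1.18 CPM (SD, n = 3), and SF3B2 came second, at 0.677 ± 0.262, 0.500 ± 0.098 and 5.45 ± 1.07 CPM, overlapping its neighbour in the order. For IL6 the order was eGFP at 16.3 ± 0.94, scramble at 12.01 ± 3.45, snaR-A at 9.04 ± 0.19 and SF3B2 at 7.13 ± 0.43 CPM, with only scramble and snaR-A overlapping. For CXCL8 it was eGFP at 79.1 ± 10.2, scramble at 52.1 ± 7.89, snaR-A at 49.9 ± 1.34 and SF3B2 at 43.0 ± 1.85 CPM, again with overlap only between scramble and snaR-A. CXCL1 and CXCL2 had this order and overlap too. CXCL3 ran eGFP, snaR-A, scramble and SF3B2, with overlap between snaR-A and scramble. In CXCL5 scramble, snaR-A and SF3B2 overlapped each with the next, and CCL2 ran eGFP, scramble, SF3B2 and snaR-A with every neighbour overlapping.

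Across the 12 A549 libraries, the genes whose log2 CPM was most like that of CXCL10 among 11932 genes were TMEM62 (Pearson r = 0.970, Spearman rho = 0.881), TRIM69 (0.968 and 0.937), LIPA (0.965 and 0.965), APOL2 (0.963 and 0.937) and IFI6 (0.961 and 0.944). Of the other members, CXCL11 had r = 0.936 and CCL5 r = 0.927 with CXCL10, and the NF-kB-type genes had r from 0.545 (IL6) to 0.836 (CXCL5). The genes most like CXCL5 were C15orf48 (r = 0.974, rho = 0.846), SCARB2 (0.970 and 0.811), RAB27B (0.966 and 0.930), STARD4 (0.965 and 0.692) and CTSS (0.964 and 0.860), and CXCL8 was the member most like it (r = 0.951, rho = 0.713). These are descriptions over libraries that share groups and, in part, depth, and the high eGFP group enters every one of them.

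**Figure D3:**
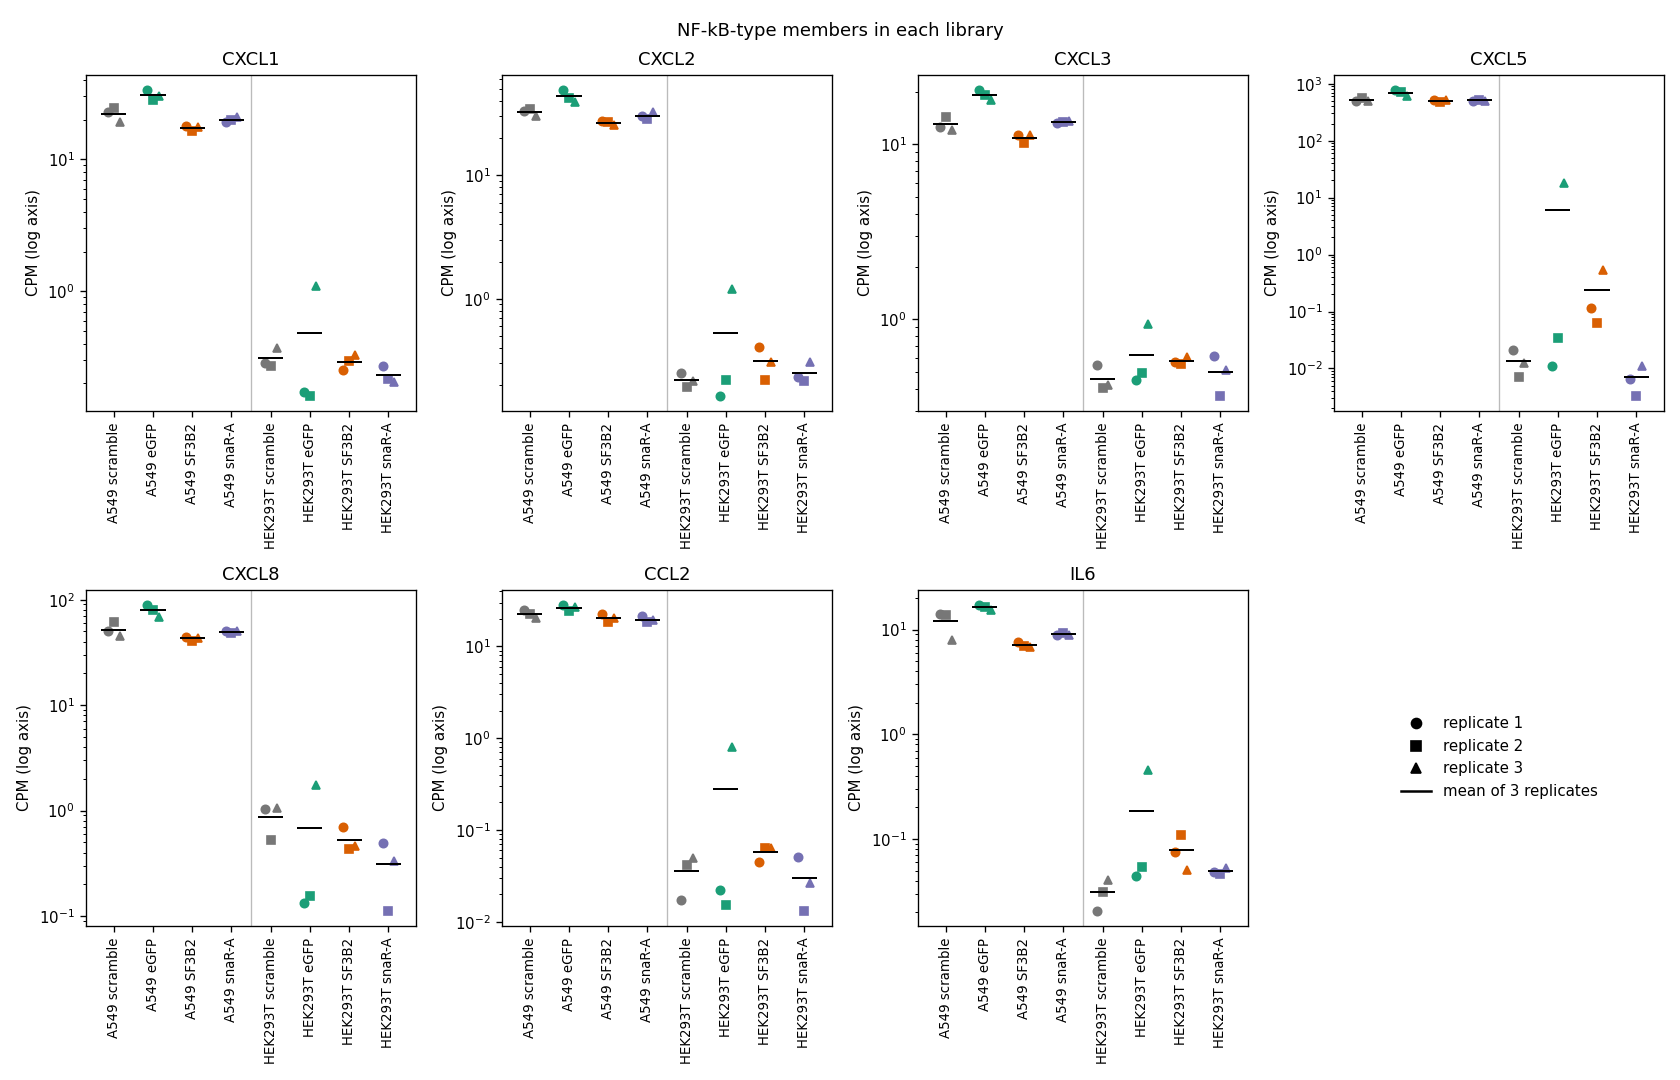
CPM on a log axis of the 7 NF-kB-type members in each of the 24 libraries, by group, with circles, squares and triangles for replicates 1, 2 and 3 and a bar at the mean of 3. In HEK293T the triangle of eGFP (replicate 3) stands above every other HEK293T library in all 7 panels, most of all for CXCL5 at 18.1 CPM beside 0.0112 and 0.0346 CPM.

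HEK293T eGFP replicate 3 has to be set apart before the HEK293T comparisons. In it the 7 NF-kB-type members stood at 2.21% to 4.90% of their A549 eGFP means, while in replicates 1 and 2 they stood at 2.57% at most for CXCL3 and 0.562% at most for the other 6. CXCL5 was 18.1 CPM there and 0.0112 and 0.0346 CPM in replicates 1 and 2, 790 times their mean. CCL2 was 0.797 CPM beside 0.0224 and 0.0154 CPM, 42.2 times the mean of the other 2. CXCL8 was 1.75 CPM beside 0.134 and 0.154 CPM, and IL6 was 0.458 CPM beside 0.0448 and 0.0538 CPM.

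Some A549 marker genes were high in the same library. Of the 11 markers 6 had their highest HEK293T value in it, at 2.46% to 4.34% of their A549 means: ALDH1A1 at 422.5 CPM, AKR1B10 at 99.5, AKR1C2 at 74.7, KRT7 at 36.3, ALDH3A1 at 16.4 and KRT19 at 0.992 CPM. The others, SFTPB, NKX2-1, CDH1, EPCAM and TFF1, were 0.0509, 4.16, 6.82, 1.66 and 0.00424 CPM in it, within the range of the other HEK293T libraries. Their A549 means were 0.0508, 0.0172, 42.2, 6.75 and 0.298 CPM. A few percent of these lies within the HEK293T spread or near the floor, so these markers could not show such a share. The interferon-type members stood close to the other replicates there, with CXCL11 at 0.106 CPM beside 0.112 and 0.0884 CPM, CCL5 at 0.920 CPM beside 0.836 and 0.853 CPM, and CXCL10 at 0.0297 CPM beside 0.0149 and 0.0346 CPM. Their A549 medians were 9.48 to 19.8 times those of HEK293T, beside 25.1 to 31100 times for the NF-kB-type members. Several interferon response genes were high in this library. OAS1 was 4.62 CPM beside 0.164 and 0.342 CPM, and MX1 was 3.77 CPM beside 0.358 and 0.384 CPM. IFIT3 was 4.71 CPM beside 0.739 and 0.83 CPM. ISG15, at 2.11 CPM beside 2.11 and 2.25 CPM, was not. The part of A549 material in these values was not tested. HEK293T SF3B2 replicate 3 showed a fainter form of it in AKR1B10 at 4.77, ALDH1A1 at 12.4, AKR1C2 at 1.465 and KRT7 at 1.10 CPM. The highest values of these in the HEK293T libraries other than the eGFP and SF3B2 replicates 3 were 0.309, 7.065, 0.286 and 0.139 CPM. ALDH3A1, at 0.502 beside 0.495 CPM, and KRT19, at 0.0179 beside 0.0337 CPM, were not clearly raised. CXCL5 shared this form, at 0.534 CPM beside 0.117 and 0.0636 CPM. The other NF-kB-type members did not share it: CXCL1, CXCL3 and CCL2 were the highest of the group by small steps, CXCL2 and CXCL8 lay below replicate 1, and IL6 was the lowest. Its CXCL11 and CCL5, at 0.0537 and 0.709 CPM, were the highest of the group, unlike those of eGFP replicate 3, which stood close to their group.

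**Figure D4:**
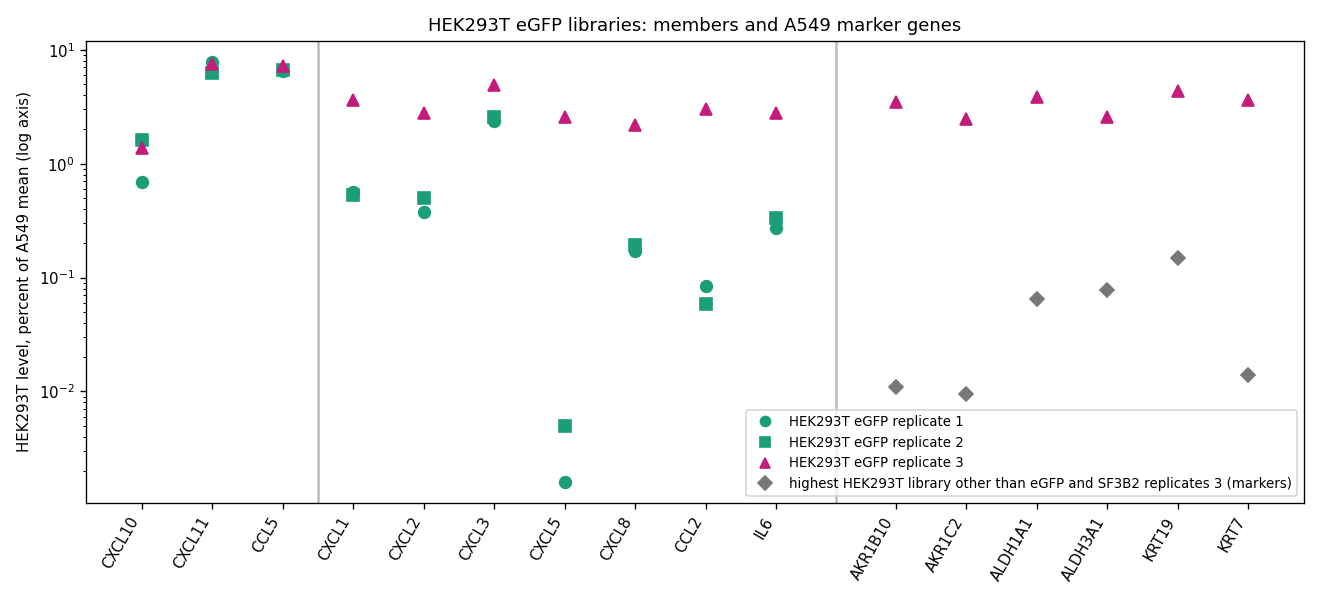
Level in the 3 HEK293T eGFP libraries as a percentage of the A549 eGFP mean for the 10 members, and level in HEK293T eGFP replicate 3 and in the highest other HEK293T library (eGFP and SF3B2 replicates 3 aside) as a percentage of the mean of 12 A549 libraries for 6 A549 marker genes, on a log axis. The 6 of 11 markers shown were chosen because their highest HEK293T value was in eGFP replicate 3, and the others, not shown, lay elsewhere. Replicate 3 (triangles) lies between 2.21% and 4.90% for the 7 NF-kB-type members and between 2.46% and 4.34% for the markers, and beside replicates 1 and 2 for the 3 interferon-type members.

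In HEK293T, the interferon-type genes CCL5 and CXCL11 were higher in eGFP than in scramble, at levels far under those of A549. CCL5 was 0.836, 0.853 and 0.920 CPM in eGFP and 0.256, 0.392 and 0.209 CPM in scramble, on 217 to 224 and 51 to 112 counts. The log2 fold change was 1.60 ± 0.24 (3.04-fold, adjusted p = 0.00134). CXCL11 was 0.112, 0.0884 and 0.106 CPM against 0.0277, 0.0035 and 0.0164 CPM, on 23 to 30 and 1 to 8 counts, a log2 fold change of 2.65 ± 0.54 (adjusted p = 0.00536). For both genes the eGFP libraries lay above every scramble library, as they did for 6420 of all 22613 genes tested. Both calls held when any 1 of the 6 libraries was left out, with CCL5 at 1.56 ± 0.26 and CXCL11 at 2.62 ± 0.63 without eGFP replicate 3.

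CXCL10, by contrast with A549, held 4 to 9 counts in eGFP and 5 to 10 counts in scramble, at 0.0149, 0.0346 and 0.0297 CPM against 0.0242, 0.0175 and 0.0410 CPM. The groups overlapped, and the gene was too low to enter the test, as was CXCL5, so that 8 of 10 members were tested. Of these, 2 passed the threshold as higher, against 8.10% of all genes. With all 3 eGFP libraries IL6 stood at 2.57 ± 0.96 (adjusted p = 0.0586), CCL2 at 2.94 ± 1.41 (adjusted p = 0.122) and CXCL8 at -0.36 ± 0.91 (adjusted p = 0.767). IL6 was called by exactTest (adjusted p = 0.0199) and by DESeq2 (adjusted p = 0.00964), which brought both counts to 3.

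Markers of other cell types differed between the same groups. The 8 leukocyte markers summed to 1.5 to 1.87 CPM in eGFP and 0.500 to 0.564 CPM in scramble, 2 of 5 tested passing as higher, with PTPRC at 0 counts in all 6 libraries and MS4A1 at 0 in eGFP. The 12 HEK293T markers summed to 552 to 557 CPM against 830.1 to 897 CPM, and 6 fibroblast markers to 16.5 to 19.3 CPM against 29.5 to 31.7 CPM. Their part in the values of CCL5 and CXCL11 was not tested.

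Without eGFP replicate 3 the values of the NF-kB-type genes were lower. CXCL8 was then lower in eGFP at -2.60 ± 0.35 (adjusted p = 0.000983), from 0.134 and 0.154 CPM in eGFP and 1.04, 0.532 and 1.05 CPM in scramble. CXCL1 was lower at -0.89 ± 0.25 (adjusted p = 0.0206), from 0.172 and 0.161 CPM against 0.287, 0.273 and 0.369 CPM. IL6 was then at 0.67 ± 0.51 (adjusted p = 0.312) and CCL2 at -0.90 ± 0.67 (adjusted p = 0.306). The 2 eGFP libraries of this line with low A549 marker levels thus had more CCL5 and CXCL11 and less CXCL8 and CXCL1 than scramble. CXCL1 did not reach the log2 fold change of the threshold. The share of all genes called without eGFP replicate 3 is not given here, so these calls have no background beside them. With all 3 eGFP libraries, 5845 of all 22613 genes were lower at an adjusted p under 0.05. In the fit with all 3 eGFP libraries, 2 of 14 interferon response genes passed as higher, OAS2 at 3.47 ± 1.09 (adjusted p = 0.0311) and ISG15 (a ubiquitin-like modifier) at 1.22 ± 0.11 (adjusted p = 0.000196), and IFI44L passed as lower at -1.15 ± 0.20 (adjusted p = 0.0029). The OAS2 value rests on eGFP replicate 3, at 0.665 CPM beside 0.056 and 0.0615 CPM in the other eGFP libraries and 0.0277, 0.028 and 0.0123 CPM in scramble. In the same fit the receptors CXCR1 and IL6R passed at 6.09 ± 0.64 (adjusted p = 0.000356) and -1.07 ± 0.08 (adjusted p = 0.000126), CXCR1 from 1 count in the 3 scramble libraries together.

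SF3B2 against eGFP in HEK293T gave no call. The interferon-type genes were on the lower side as in A549: CCL5 was 0.244, 0.282 and 0.709 CPM in SF3B2, at -1.09 ± 0.40 (adjusted p = 0.194), and CXCL11 was 0.0188, 0.0136 and 0.0537 CPM, at -1.79 ± 0.50 (adjusted p = 0.141). Both were below every eGFP library, as were 3450 of all 22623 genes, and in both the third SF3B2 library stood above the other 2. None of 9 members tested passed, against 0.133% of all genes in either direction. At an unadjusted p under 0.05 were 2 of the 9, beside 4904 of all 22623 genes. At an adjusted p under 0.05 exactTest gave 1 and DESeq2 0.

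Leaving out libraries changed this. Without SF3B2 replicate 3, CXCL11 at -2.60 ± 0.41 (adjusted p = 0.0374) and CCL5 at -1.72 ± 0.16 (adjusted p = 0.0236) passed. Without both replicates 3, a choice made after seeing the data, CCL5 at -1.68 ± 0.19 (adjusted p = 0.0295) and CXCL8 at 1.97 ± 0.31 (adjusted p = 0.0419) passed in opposite directions, and CXCL11 was at -2.58 ± 0.52 (adjusted p = 0.0526). The shares of all genes called in these reduced fits are not given here, so these calls have no background beside them. In the fit of all libraries of the 2 groups, 39 of all 22623 genes were under an adjusted p of 0.05. The NF-kB-type values of this comparison changed sign with eGFP replicate 3, CXCL5 from -4.66 ± 2.36 to 3.36 ± 1.13.

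SF3B2 against scramble in HEK293T had 1 of 8 members tested past the threshold as higher, CXCL5, against 5.76% of all genes. It was 0.117, 0.0636 and 0.534 CPM in SF3B2, on 14 to 149 counts, and 0.0208, 0.0070 and 0.0123 CPM in scramble, on 2 to 6 counts, at 4.12 ± 0.93 (adjusted p = 0.0134). Without SF3B2 replicate 3 it was 2.72 ± 0.58 (adjusted p = 0.0104), and IL6 passed too at 1.57 ± 0.46 (adjusted p = 0.0323), with no share of all genes given for that fit. The call on CXCL5 was lost without scramble replicate 2 (adjusted p = 0.0603) and without scramble replicate 3 (adjusted p = 0.0514), which left no member past the threshold. The scramble group stood at or near the floor for this gene, and the fold is not a bound.

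For snaR-A against scramble in HEK293T, 1 of 8 members tested passed as higher, against 3.95% of all genes, and 1 as lower, against 0.790%. CXCL11 was 0.0804, 0.0531 and 0.0450 CPM in snaR-A, on 12 to 25 counts, above the 0.0277, 0.0035 and 0.0164 CPM of scramble, at 1.89 ± 0.59 (adjusted p = 0.0344). CXCL8 was 0.495, 0.113 and 0.330 CPM, below the 1.04, 0.532 and 1.05 CPM of scramble, at -1.47 ± 0.47 (adjusted p = 0.0379). In both genes the groups did not overlap, but neither did they in many others, 5657 higher and 5784 lower of all 22667 genes. Both calls were frail: CXCL11 kept its call in 1 of 6 fits with a library left out (adjusted p up to 0.123 without snaR-A replicate 1) and CXCL8 in 2 of 6 (up to 0.108 without scramble replicate 1). CCL5, at 0.338, 0.269 and 0.341 CPM, was within the range of scramble at 0.15 ± 0.25 (adjusted p = 0.677).

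Whether a plasmid acted differently in the 2 lines was tested as an interaction, the A549 log2 fold change minus that of HEK293T, on 12 libraries each. For eGFP against scramble 1 of 10 members differed at an adjusted p under 0.05, against 26.4% of all genes: CXCL10, at 2.92 ± 0.61 (adjusted p = 0.00562), with HEK293T counts of 4 to 10 in both groups, near the floor. It held in 12 of 12 fits with a library left out. CCL5, at 0.03 ± 0.28 (adjusted p = 0.961), and CXCL11, at -0.80 ± 0.49 (adjusted p = 0.263), did not pass. Without HEK293T eGFP replicate 3, 5 members differed: CXCL10, CXCL8 at 3.27 ± 0.38 (adjusted p = 0.000251), CXCL1 at 1.43 ± 0.22 (adjusted p = 0.00107), CXCL2 at 0.70 ± 0.21 (adjusted p = 0.0306) and CXCL3 at 0.59 ± 0.19 (adjusted p = 0.0391). Leaving out HEK293T eGFP replicate 1 or replicate 2 gave 2 members. The shares of all genes called in these reduced fits are not given here, so their counts have no background beside them.

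For SF3B2 against eGFP 1 of 10 members was at an unadjusted p under 0.05, beside 6694 of all 24714 genes. At an adjusted p under 0.05 none of 10 differed between the lines, against 6.10% of all genes. Without HEK293T eGFP replicate 3, 6 NF-kB-type members did, all more negative in A549, from -1.10 ± 0.13 for CXCL3 (adjusted p = 0.00196) to -2.76 ± 0.28 for CXCL8 (adjusted p = 0.000779). The interferon-type genes did not, in either fit. The share of all genes called in the fit without that library is not given here. For snaR-A against scramble 1 of 10 differed, against 11.4% of all genes: CXCL11 at -2.15 ± 0.62 (adjusted p = 0.0439), which stayed under an adjusted p of 0.05 in 3 of 12 fits with a library left out and did not, for example, without A549 scramble replicate 1 (adjusted p = 0.0777) and without HEK293T snaR-A replicate 1 (adjusted p = 0.105). Without A549 scramble replicate 3, CXCL11 was at -2.17 ± 0.67 (adjusted p = 0.0475) and IL6 differed as well, at -1.30 ± 0.24 (adjusted p = 0.00598). For that fit too the share of all genes is not given here.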

How the data were processed

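RNA was sequenced from 24 libraries in 8 groups of 3, at 48 h after transfection. According to the study's methods and the submitters' processing notes, the authors made stranded libraries after depletion of ribosomal RNA and selection of poly(A) RNA, trimmed reads with Trim Galore and quantified them with Salmon on hg38. The transcriptome release and the tool that summed transcripts to genes are not given in the sources used here. The deposited values are estimated counts per gene, 60236 genes in all, of which 54903 IDs have a symbol and 5333 have none. Of the values, 51.0% were not whole. They were rounded to whole numbers, which set 0.034% of them to 0. Library totals ran from 195186194 to 260878268 estimated counts. A count of 0 allows up to 3 counts, a limit that covers counting error only. All columns of the table were used.

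Groups follow the labels. Between replicates the variance was 22.2 times that of counting or more, in all 24 pairs, so none was the same library deposited again. The study calls them biological replicates processed on the same day, and p-values measure the spread between these cultures. Same-numbered replicates of different groups did not deviate together (18 pairs a line, median r = -0.00635 for HEK293T and -0.00383 for A549), and the numbers were not taken to pair them.

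Each comparison was fitted on its own 6 libraries after filterByExpr and TMM normalization, with edgeR 4.0.16 (glmQLFit and glmQLFTest, R 4.3.3) and Benjamini-Hochberg adjustment over all genes tested. A call needs an adjusted p under 0.05 and a log2 fold change beyond 1 in size. The 3 interactions used 12 libraries and the comparison of lines 24, and interactions were called on the adjusted p alone. CPM are scaled once over the 24 libraries. For levels per length, exon unions and longest transcripts of GENCODE 44 were used. The steps were tested on simulated counts with known changes.

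The 10 members, the lists of other genes and the tests were chosen with earlier results of these data known. Genes outside the members were named by rule: up to 3 of a list past the threshold with the largest change, otherwise the 2 most abundant genes tested. NFKBIA, IFNB1, IFNE, JUNB and CD68 were named after their values were seen. NFKBIB, IRF9, TTC37 and MUC5AC, also on the lists, were not analysed here. Alternatives were RLE normalization, library size alone, no filter, a filter of 10 counts in each library, a fit of the 12 libraries of a line, edgeR's exactTest, DESeq2 1.42.0, the replicate number as a block and leaving out each library. Leaving out HEK293T eGFP replicate 3, HEK293T SF3B2 replicate 3 and A549 scramble replicate 3 together was chosen after seeing the data.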

Additional observations from a re-analysis of the deposited data

Results flagged for a closer look

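The interaction test between the cell lines called 2 members, CXCL10 for eGFP and CXCL11 for snaR-A. For eGFP this was 1 of 10 members, against 26.4% of all genes. For snaR-A it was 1 of 10 members, against 11.4% of all genes. For CXCL10 the log2 fold change of eGFP against scramble in A549 was 2.92 ± 0.61 above that in HEK293T (edgeR adjusted p = 0.00562), with 2.56 to 3.16 when 1 of the 12 libraries was left out. The HEK293T side of it rests on 22 counts in the 3 scramble libraries and 20 in the 3 eGFP libraries. For CXCL11 the log2 fold change of snaR-A against scramble was -2.15 ± 0.62, more negative in A549 (edgeR adjusted p = 0.0439), with adjusted p from 0.0334 to 0.105 when 1 library was left out, and the HEK293T side rests on 13 counts in scramble and 53 in snaR-A.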

How the results depend on the processing

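Of the values of single members under the alternatives, 975 kept their direction and their side of the threshold, 42 moved out of significance and 39 into it, and 20 changed sign. Members past the threshold in HEK293T eGFP against scramble, 2 as reported, were 4 without a filter on low counts, 4 in the fit of 12 libraries, 3 with exactTest, 3 with DESeq2 and 1 with at least 10 counts in every library. For HEK293T SF3B2 against eGFP, 0 as reported, they were 1 with exactTest, 2 without the libraries that stand apart and 0 to 2 with 1 library left out. For HEK293T SF3B2 against scramble, 1 as reported, they were 2 with exactTest, 0 in the fit of 12 libraries, 0 with at least 10 counts and 0 to 2 with 1 library left out. For HEK293T snaR-A against scramble, 2 as reported, they were 1 with library size alone, with at least 10 counts, in the fit of 12 libraries and with DESeq2, and 0 to 1 with 1 library left out. Members under an adjusted p of 0.05 in A549 eGFP against scramble were 8 in place of 4 with exactTest, DESeq2 and the fit of 12 libraries. In A549 SF3B2 against scramble they were 1 with exactTest, 3 with DESeq2 and 0 to 5 with 1 library left out, in place of 0. Interactions for eGFP were 4 without the libraries that stand apart and 1 to 5 with 1 library left out, for SF3B2 7 and 0 to 6, and for snaR-A 2 and 0 to 2. The causes were not tested. Replicate numbers carry no pairing here, and with the replicate block, interactions for eGFP rose from 1 to 2 members, CXCL3 in A549 eGFP against scramble rose above an adjusted p of 0.05 (adjusted p = 0.121), as did the CXCL11 interaction for snaR-A (0.0536), and CCL2 in A549 SF3B2 against eGFP came under it (0.0184). Sign changes fell mostly in HEK293T SF3B2 against eGFP. Without the libraries that stand apart, log2 fold changes there were 0.71 for CXCL1, 0.72 for CXCL2, 0.25 for CXCL3, 1.97 for CXCL5, 1.97 for CXCL8 and 0.89 for IL6, and CXCL8 was 0.69 with the replicate block. With 1 library left out they ran from -1.13 to 0.80 for CXCL1, -1.20 to 0.69 for CXCL2, -0.32 to 0.28 for CXCL3, -6.04 to 3.36 for CXCL5, -0.85 to 1.87 for CXCL8, -2.83 to 1.57 for CCL2 and -1.73 to 0.64 for IL6. In HEK293T eGFP against scramble they ran from -0.89 to 1.03 for CXCL1, -0.20 to 1.68 for CXCL2, -2.60 to 0.11 for CXCL8 and -0.90 to 3.49 for CCL2, and in A549 SF3B2 against scramble from -0.077 to 0.014 for CXCL5. Library size alone moved the median log2 fold change of all genes from -0.01 to -0.47 between the lines, from -0.02 to -0.18 for HEK293T SF3B2 against eGFP and from 0.02 to 0.19 for the SF3B2 interaction. Depth limits CXCL10 and CXCL5 in HEK293T, where most libraries held 10 counts or fewer, and neither entered all tests.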

Other observations

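CXCL13 and CXCL6, chemokines outside the 10, passed in HEK293T eGFP against scramble at log2 fold changes of 1.64 ± 0.46 (edgeR adjusted p = 0.0196) and -1.09 ± 0.29 (adjusted p = 0.0176). LIF, SAA2 and ICAM1 were the 3 of 21 NF-kB feedback and target genes tested there that passed, at 2.35 ± 0.21 (adjusted p = 0.000209), 2.20 ± 0.44 (adjusted p = 0.00478) and 1.62 ± 0.17 (adjusted p = 0.000379), beside 8.10% of all genes that passed as higher. At an adjusted p under 0.05, 6 of the 21 were higher and 6 lower, beside 5183 higher and 5845 lower of all 22613 genes tested. Of 8 interleukin-6 response genes tested, 2 were higher and 3 lower at an adjusted p under 0.05, with a median log2 fold change of -0.18, and 1 passed the threshold, HP (haptoglobin, an acute phase gene), at 3.37 ± 0.47 (adjusted p = 0.00102). JUNB was 6.35, 6.22 and 7.04 CPM in eGFP and 10.7, 9.32 and 9.16 CPM in scramble.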
